A study of Danio rerio with 2 samples.

Results

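Chromatin accessibility was examined at 40 genes of mitosis and cytokinesis in hearts of zebrafish embryos, chosen as a set by name: kinases and regulators of mitotic entry, the spindle checkpoint, chromosome structure, the spindle and the division of the cell body. This set and the wider list used below were chosen with earlier results of these data known. All 40 were named in the deposited regions, among 22038 gene names, and 90 of 41473 regions were assigned to them. For 39 of the 40 a region lay within 1000 bp of the gene start. The nearest such region is called the promoter here, and its distance is that from the gene start to the centre of the region. The exception was *kif11*, a spindle motor, whose nearest regions lay just outside this limit, 1446 bp upstream and 1530 bp downstream of the start.

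The measurement was ATAC-seq, in which a transposase cuts open DNA and the tagged fragments are sequenced. Hearts of *heart of stone* (*hos*) mutants gave 1 library and hearts of their siblings 1, both dissected at 96 h post fertilization from the *hos* line carrying Tg(*myl7*:GFP), a cardiomyocyte reporter that the controls carry too. The protocol names 60 hearts without the number of each genotype, the hearts were processed in bulk, and the labels give the sibling genotype as wild type without saying whether carriers were among them. No genotype had a replicate, so no p-value is given, each difference is one between these libraries, and the intervals given for a fold (exact binomial, 95%, on estimated tags) cover counting error only.

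Cells enter mitosis when the kinase Cdk1 with its cyclin becomes active, are held at metaphase by the spindle checkpoint until every chromosome is attached, and split by a contractile ring placed at the spindle midzone. Most genes of this programme are switched on together in G2 and M phase by B-Myb with the MuvB complex and by FoxM1, and are shut off in cells that leave the cycle. The embryonic zebrafish heart grows in part by division of cardiomyocytes, and the title of the series names Smarce1, which belongs to the SWI/SNF remodeler, and the proliferation of these cells. The comparison asked whether the promoters of mitosis genes were open to a different degree in *hos* hearts.

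The mitosis promoters were open in both libraries, and none differed 2-fold. The sibling signal, a mean pileup over the region, ran from 26.1 to 356 with a median of 85.2, and the *hos* signal from 24.8 to 405 with a median of 90.2. Over all 14591 gene promoters the medians were lower, 47.5 and 56.2. A peak was called in both libraries at 38 of the 39 (97.4%, against 85.8% of all gene promoters), and at *ncapd2* in the mutant alone. None was called in the sibling alone. Pairs of signals are given from here on as sibling, then mutant. In bulk tissue, fewer cells with an open promoter and less opening per cell cannot be told apart.

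Signal was slightly higher in the *hos* library at most members, by less than at promoters in general. The median log2 ratio of mutant over sibling (on signal + 1) was 0.15, a fold of 1.11, with a 95% order-statistic interval of 0.08 to 0.22 that treats genes as independent. Over all gene promoters it was 0.25, a fold of 1.19. The ratio was above 0 at 32 of 39 members, beside 77.3% of all gene promoters, and below the promoter median of 0.25 at 27 (69.2%). No member was 2-fold higher, where 1.79% of all promoters were, and none 2-fold lower, where 0.788% were. Members 1.5-fold higher numbered 2, *pttg1* and *ncapd2* (all promoters 13.5%), and 0 were 1.5-fold lower (all promoters 3.03%).

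The direction relative to 0 depended on scaling, which the sources used here do not give. With the median of all regions (0.15) set to 0, 19 of 39 members were above 0, against 62.0% of all gene promoters. After a lowess fit on mean signal over all regions, 11 of 39 were above 0 with a median of -0.08, against 55.6% and 0.04. Setting the median to 0 shifts all promoters alike, so it cannot change the order of the member and promoter medians. After lowess centring, which could change it, the member median stayed below the promoter median. The position of the member median relative to 0 did not hold.

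**Figure D1:**
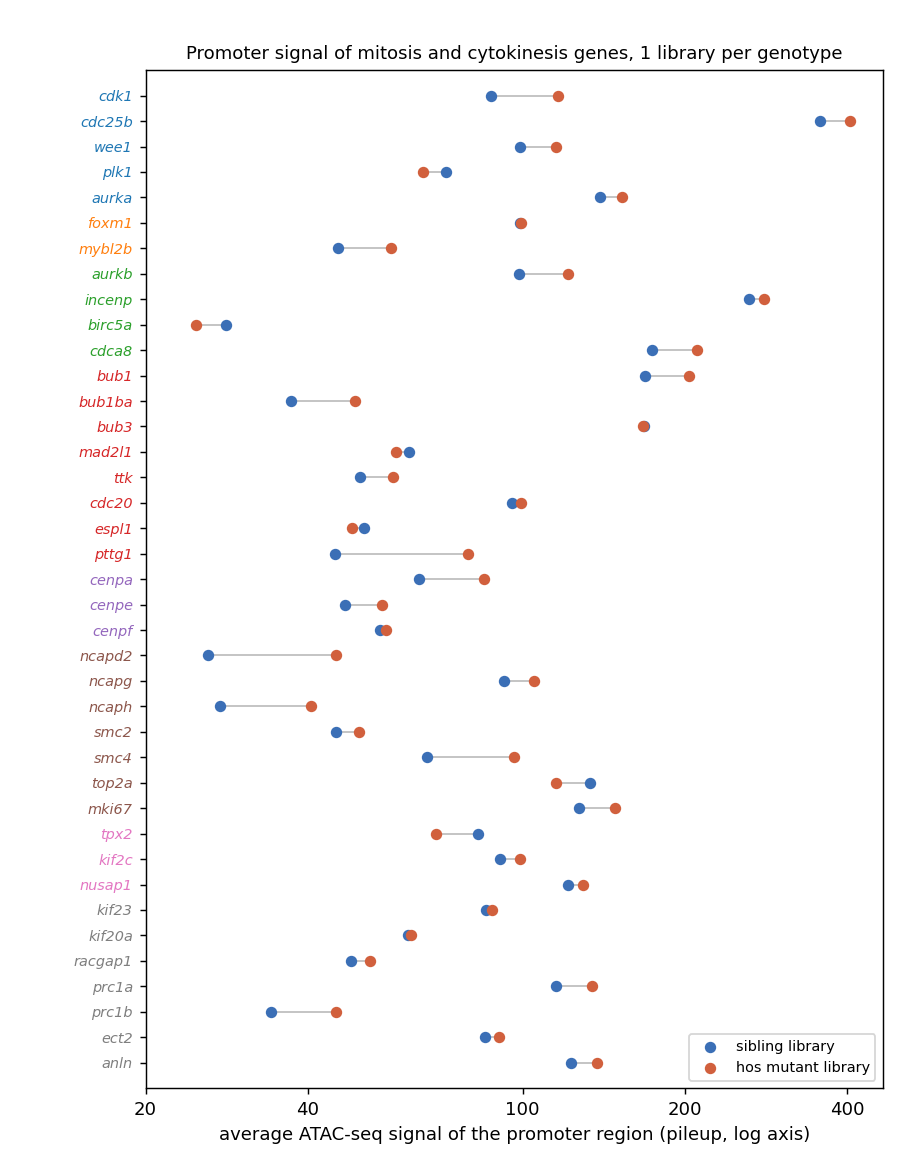
Average ATAC-seq signal (pileup, log axis) of the promoter region of 39 mitosis and cytokinesis genes in the sibling (blue) and *hos* mutant (orange) library, 1 library each, with gene names coloured by role. The points of a gene lie close together next to the range between genes, and 7 genes have the mutant point to the left.

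The ratio was also read against promoters of like strength, in 10 equal classes of gene promoters by mean signal, since the median of the other promoters grew from 0.17 in the weakest class to 0.28 in the strongest. Members were mostly strong, with 29 of 39 in the upper 5 classes. Relative to the other promoters of its own class the median member lay at -0.11 on the log2 scale, with 28 of 39 below (71.8%). The spread was narrow, with a standard deviation of 0.24 against 0.39 for all gene promoters, which include many weaker ones.

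Counting error alone was as large as most of these differences. The members' promoters held 38 to 906 estimated tags in the sibling library and 44 to 1029 in the other. The interval of the fold held 1 at 29 members, lay above 1 at 10 (all promoters 36.8%) and below 1 at 0 (all promoters 3.34%). It lay wholly below the median promoter fold of 1.19 at 5, *plk1*, *incenp*, *bub3*, *top2a* and *tpx2* (all promoters 12.0%), and wholly above it at 2, *pttg1* and *smc4* (all promoters 11.7%). Of 39 members 5 are close to the share of the background on the low side, and 2 are below it on the high side. The tags were estimated from average signal. On peak signal *pttg1* had 66.0 and 116, and *smc4* had 120 and 131, a much smaller rise than on average signal.

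**Figure D2:**
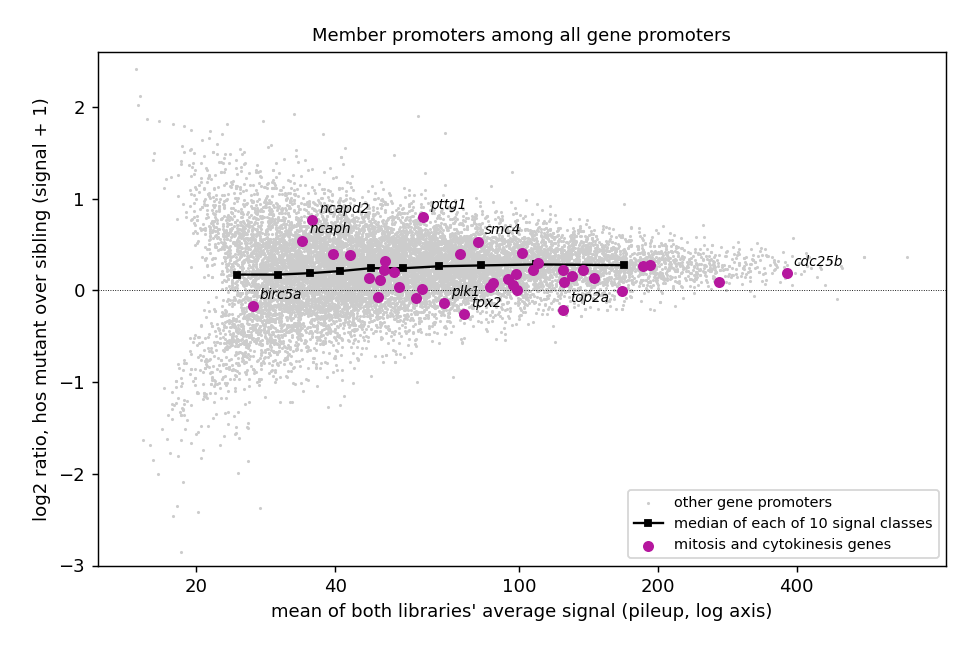
Log2 ratio of mutant over sibling (signal + 1) against the mean signal of both libraries (pileup, log axis) for all gene promoters (grey) and 39 member promoters (magenta). Squares mark the median of other promoters in each of 10 signal classes, from 0.17 to 0.28, and 28 of the 39 members lie below the median of their class.

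Regulators of mitotic entry had some of the strongest promoters. *cdk1*, the kinase that drives entry into mitosis, had the highest ratio of its group: its single region (gene 80973, chr17:20923168-20923833, danRer11, centred 191 bp upstream of the start) had 87.4 and 116, a fold of 1.33 (1.13 to 1.57). *cdc25b*, a phosphatase that activates Cdk1, had the strongest promoter of all members (gene 57925, chr13:14929018-14929588), with 356 and 405 and a fold of 1.14 (1.04 to 1.24). *wee1*, the kinase that restrains Cdk1, had 98.9 and 116, and the region sat 514 bp upstream of its start, further out than at any other member. The activator and the inhibitor thus differed by little, with log2 ratios of 0.18 and 0.22.

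The mitotic kinases of this group had ratios on either side of 0. *plk1*, the polo-like kinase needed for spindle assembly and cytokinesis, had 72.0 and 65.3, a fold of 0.907 (0.700 to 1.17). *aurka*, the kinase of spindle poles, had 139 and 153, a log2 ratio of 0.13. Its activator *tpx2*, which also nucleates spindle microtubules, had the lowest ratio of all 39, with 82.8 and 69.1, a fold of 0.835 (0.654 to 1.08), or -0.26 in log2. The intervals at *plk1* and *tpx2* both hold 1.

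The promoters of the transcription factor genes that switch on this programme were open in both libraries. *foxm1* had 99.0 and 99.4, a log2 ratio of 0.01, and a second, weaker region 840 bp upstream had 34.0 and 43.2. That weaker region was called in the mutant only. *mybl2b*, which encodes a B-Myb, had 45.5 and 57.0, a fold of 1.25 (0.939 to 1.70). The *mybl2b* region also lies at the start of si:ch73-303b9.1, and that of *foxm1* at the start of si:ch73-352p4.5, so the signal cannot be assigned to 1 gene.

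The chromosomal passenger complex, which corrects chromosome attachment and later acts at the midzone, spanned strong and weak promoters. Its scaffold gene *incenp* had 262 and 280, a fold of 1.07 (0.961 to 1.19), and the Borealin gene *cdca8* had 174 and 211, a fold of 1.21 (1.05 to 1.40). Its kinase gene *aurkb* had 98.3 and 121, a log2 ratio of 0.30. The Survivin gene *birc5a* was the weakest member of the complex and had the least signal of all members in the mutant, 28.2 and 24.8. Its fold of 0.883 has an interval from 0.573 to 1.35. The *incenp* region also lies at the start of si:ch211-272n13.3, and the *cdca8* region at that of c19h1orf109.

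Among 8 spindle checkpoint and anaphase genes, 5 were above 0 (all gene promoters 77.3%) and 6 lay below the median of their signal class. The kinase gene *bub1* was strong, with 169 and 203, a fold of 1.20 (1.04 to 1.39). Its partner *bub3* had nearly equal signals, 168 and 167, and *bub1ba*, which encodes the checkpoint protein BubR1, was weak, with 37.2 and 48.9. *mad2l1*, whose product holds back the anaphase-promoting complex, had 61.7 and 58.3, a fold of 0.945 (0.712 to 1.25). The checkpoint genes thus lay on either side of an equal level, with log2 ratios from -0.08 at *mad2l1* to 0.38 at *bub1ba*.

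The kinase gene *ttk* (Mps1), which starts checkpoint signaling, had 49.9 and 57.5, a fold of 1.15 (0.916 to 1.45). *cdc20*, the activator that the checkpoint restrains, had 95.4 and 99.3, and *espl1*, which encodes separase, the protease that opens cohesin, had 50.8 and 48.2. Its inhibitor is securin, and the securin gene *pttg1* had the highest ratio of all members. At *pttg1* (gene 100307086, chr14:34558215-34558633) signal was 44.8 and 79.2, a fold of 1.77 (1.34 to 2.33), or 0.81 in log2, at percentile 95.3 of all gene promoters. A region 10041 bp upstream of *pttg1* had 28.5 and 22.8 and was called in the sibling only. The log2 ratio at *espl1* was -0.07, and its fold of 0.949 has an interval of 0.711 to 1.27 that holds 1.

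Centromere genes had ratios of 0.04 to 0.39. *cenpa*, the histone H3 variant of centromeres, had 64.4 and 84.9, a fold of 1.32 (1.04 to 1.67), in a region that also holds the start of *seph* and is marked as a CpG island. The kinetochore motor gene *cenpe* had 46.9 and 54.9, and *cenpf*, a large kinetochore and nuclear matrix protein gene, 54.3 and 55.8. Downstream of *cenpa* the signal was uneven: regions 4300 and 5259 bp from the start had folds of 1.37 (1.21 to 1.54) and 1.64 (1.15 to 2.31), and one at 9812 bp a fold of 0.708 (0.511 to 0.977). The region at 5259 bp was called in the mutant only. Each of these downstream regions also names *ssuh2rs1* and *seph*.

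Condensin I compacts chromosomes after the nuclear envelope breaks down. Its 5 genes were grouped after their values were seen, so their shared position is a description only. All 5 promoters had log2 ratios above 0, as had 77.3% of all gene promoters, and *ncapd2* was called in the mutant only, so that its region entered the table through the library in which it is high. *ncapd2* had 26.1 and 45.1, a fold of 1.73 (1.13 to 2.62), *ncaph* 27.5 and 40.5, a fold of 1.47 (1.02 to 2.16), and the ATPase gene *smc4* 66.5 and 96.6, a fold of 1.45 (1.23 to 1.71). The other ATPase gene *smc2* had 45.1 and 49.6 and *ncapg* 92.4 and 105, with log2 ratios of 0.14 and 0.18, which became -0.05 and -0.08 after lowess centring. On average signal the median of the 5 was 0.53. Of the 5, 3 lay above the median of their signal class, so the genes of the complex were not alike. On peak signal *smc4* had 120 and 131, a much smaller rise, and *smc2* was slightly lower in the mutant. *ncapd2* had peak signals of 34.0 and 59.0, and *ncapg* and *ncaph* were also higher in the mutant. The position of the 5 is thus given for average signal only. The *smc4* region also lies at the start of *ift80*, a ciliary transport gene, and its gene list holds *mir15c* and *mir16a*.

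The remaining chromosome genes were at or below the general level. *top2a*, the topoisomerase that untangles sister chromatids (chr12:10706444-10706920), had 133 and 115, a fold of 0.865 (0.727 to 1.03), and after lowess centring its log2 ratio was -0.48. The region is shared with the start of *samd14*. *mki67*, which encodes the Ki-67 protein that coats mitotic chromosomes and marks cycling cells, had 127 and 148, a fold of 1.17 (0.997 to 1.37), close to the general level.

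**Figure D3:**
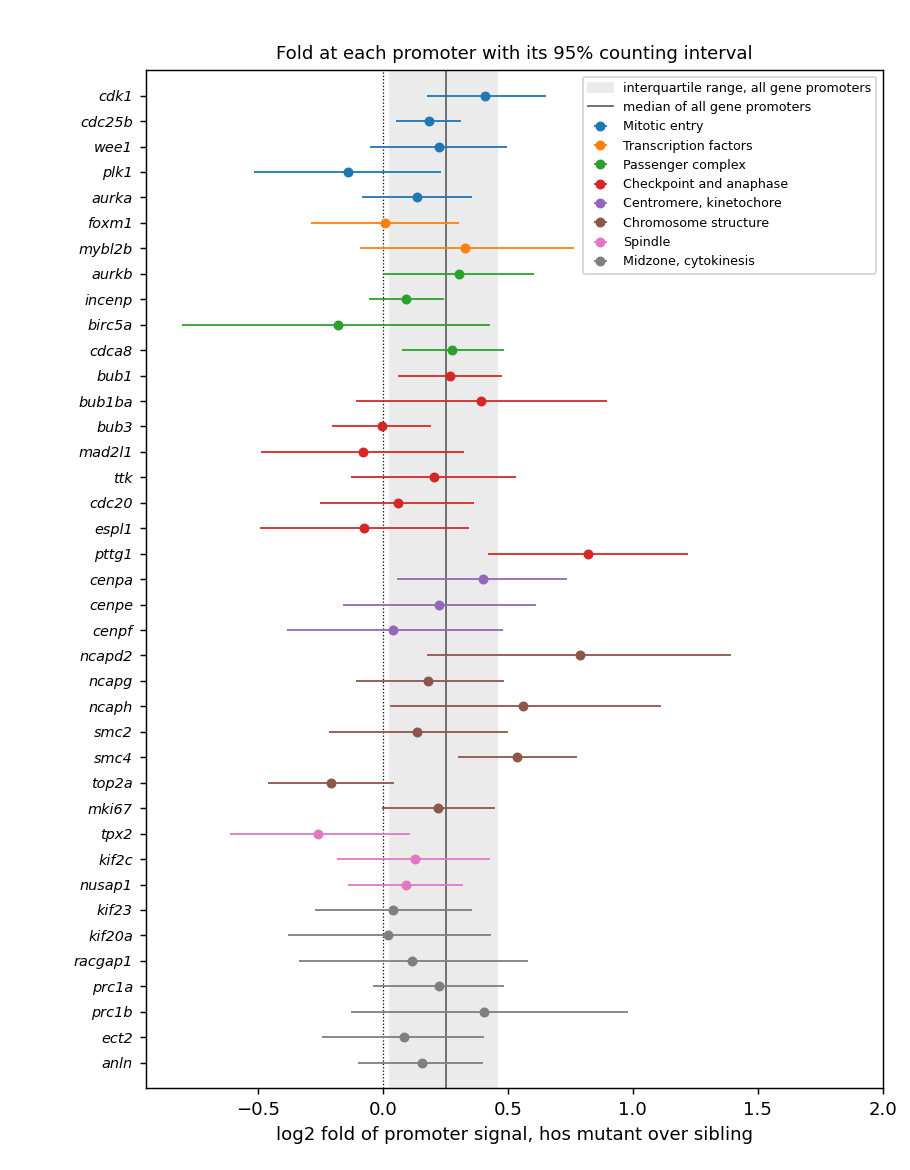
Log2 fold of promoter signal, *hos* mutant over sibling, for 39 genes with 95% exact binomial intervals (counting error only), coloured by role, beside the median (line) and interquartile range (band) of all gene promoters. The highest point is *pttg1* at a fold of 1.77 and the lowest *tpx2* at 0.835, and 29 intervals hold a fold of 1.

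Spindle and cytokinesis genes other than *tpx2* had log2 ratios of 0.02 to 0.39. The microtubule depolymerase gene *kif2c* had 90.7 and 99.0 and the spindle protein gene *nusap1* 121 and 129, folds of 1.09 and 1.07. All 7 midzone and cytokinesis genes were above 0 (all gene promoters 77.3%), and 6 of the 7 lay below the promoter median. Their median log2 ratio was 0.12, and after lowess centring 1 of the 7, *prc1b*, was above 0.

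Centralspindlin, which recruits the ring activator Ect2 to the midzone, is made of the products of *kif23* and *racgap1*. *kif23* had 85.5 and 87.9, *racgap1* 48.1 and 52.2, and *ect2* itself 85.2 and 90.2, with log2 ratios of 0.04, 0.12 and 0.08. The midzone motor gene *kif20a* had 61.2 and 62.1. The ring scaffold gene *anln* (anillin) had 123 and 137, with a second region 831 bp inside the gene at 51.7 and 70.8. Each of these 5 promoter folds had an interval that holds 1.

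The paralogs *prc1a* and *prc1b*, which bundle midzone microtubules, differed more in level than in ratio. *prc1a* had 115 and 134, a fold of 1.17 (0.974 to 1.40), and *prc1b* 34.1 and 45.1, a fold of 1.32 (0.915 to 1.97). Their intervals overlap over most of their length.

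The layout of the promoters was not used to choose the genes. The region centre lay within 100 bp of the annotated start at 30 of 39 members (76.9%, against 53.4% of all gene promoters), at a median distance of 56.0 bp against 91.0 bp. It lay upstream of the start at 31 (79.5%, against 37.6%). A CpG island was marked at 3, *cdc25b*, *bub3* and *cenpa* (7.69%, against 23.1%). Region length was ordinary, with a median of 444 bp against 455 bp, and 8 regions (20.5%, against 14.9%) also held the start of another gene. The members lay on 20 chromosomes, so they are not one neighbourhood. Of 105 promoters of other mitosis genes, 68.6% lay within 100 bp of the start, 57.1% lay upstream and 10.5% had a CpG island. These shares describe annotated starts, and whether starts of mitosis genes are annotated in another way was not tested.

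Few other regions were assigned to these genes. Those with a promoter had a mean of 2.21 regions, against 3.09 for all genes with a promoter region, and 7 had the promoter alone. Of the 49 regions over 1000 bp from the start, 18 were upstream, 28 downstream and 3 inside a gene, whereas 41.0% of all such gene and region pairs were inside the gene. Since 43 of the 49 also name another gene, most cannot be assigned to the mitosis gene. At *mki67*, for example, the region 15147 bp from its start is the promoter of its neighbour *ndc80*, a kinetochore gene.

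The upstream regions held the lowest ratios of all. Their median log2 ratio was 0.06 over 18 regions, with quartiles of -0.33 and 0.13, beside 0.23 over all upstream pairs. The 28 downstream regions had 0.30, beside 0.23. Neither comparison was matched for signal. Among the 18, those of *cdc25b*, *plk1*, *birc5a*, *mad2l1*, *pttg1* and *tpx2* were called in the sibling only. A region each of *ncapd2* and *kif11* was called in the mutant only. Such regions enter through the library in which they were called. The lowest ratio of all was 9746 bp upstream of *cdc25b*, with 37.6 and 17.0, 2.21-fold (1.41 to 3.51) lower in *hos*. Second was a region 9229 bp upstream of *mad2l1*, with 28.2 and 13.2, 2.13-fold (1.12 to 4.24) lower. These were the 2 regions past 2-fold among all 90, beside 4.83% of all 41473 regions at least 2-fold lower, and 0 of the 90 were 2-fold higher, beside 3.32%.

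Next came regions upstream of *plk1*, with 31.2 and 16.6, a log2 ratio of -0.87, and of *tpx2*, with 31.6 and 17.6, a log2 ratio of -0.81. A region also 1.5-fold lower lay 40335 bp downstream of the *top2a* start, with 30.4 and 18.8. All 5 were weak and were called in the sibling only, and such a region enters the table through the library in which it was called. The promoters of *plk1*, *tpx2* and *mad2l1* were also below 0, and that of *cdc25b* was not. The lowess-centred ratio was -0.24 at the *mad2l1* region, against -1.04 without centring, and stayed at or below -0.70 at the other 3 upstream regions.

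The highest were inside *ect2*, 51626 bp from its start, with 15.6 and 29.6, a fold of 1.90 (1.12 to 3.22), and 1446 bp upstream of *kif11*, with 29.4 and 53.0, a fold of 1.80 (1.12 to 2.93). Both were called in the mutant only. The other *kif11* regions, at 1530 bp inside the gene, 3406 bp upstream and 19639 bp downstream, had log2 ratios of 0.37, 0.12 and 0.49. A very strong region 1136 bp upstream of *cdca8*, outside the promoter limit, hardly differed, with 379 and 394.

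**Figure D4:**
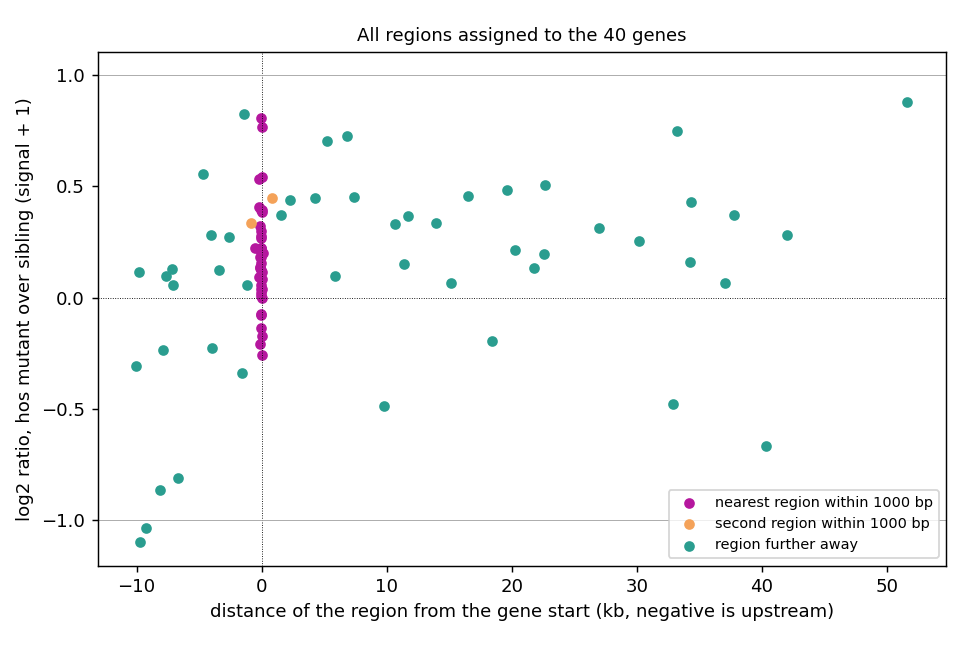
Log2 ratio of mutant over sibling (signal + 1) for all 90 regions assigned to the 40 genes, against distance of the region centre from the gene start in kb (negative is upstream), with grey lines at 2-fold. Promoter regions stay between -0.26 and 0.81, and the 2 regions past 2-fold lie upstream of *cdc25b* and *mad2l1*.

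Other genes of the same processes, listed by name as a wider set, had a median nearer the general level than that of the members. Of 129 listed genes 119 were in the files, 10 of them under another symbol, and 105 had a promoter, 1 of which (*oip5*) is the *nusap1* region. Their median log2 ratio was 0.21, with an order-statistic interval of 0.10 to 0.30 that treats genes as independent. It was 0.15 for the members, with an interval of 0.08 to 0.22 of the same kind, and 0.25 for all promoters. The intervals of the wider set and of the members overlap. Both run over genes measured in the same 2 libraries, so their overlap tests no difference. In the wider set 1 was 2-fold higher (all promoters 1.79%) and 0 were 2-fold lower (all promoters 0.788%). At 1.5-fold, 11 of the 105 were higher (all promoters 13.5%) and 1 was lower (all promoters 3.03%). The partner cyclins of Cdk1 had log2 ratios of -0.03 at *ccnb1*, 0.21 at *ccna2* and 0.47 at *ccnb2*.

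The lowest of this wider set were *sgol1* (shugoshin, which protects centromeric cohesion), with 50.0 and 30.0, a fold of 0.600 (0.415 to 0.859), *plk4*, the kinase of centriole duplication, with 63.5 and 43.3, *kntc1*, a checkpoint gene of the kinetochore, with 59.5 and 41.0, and *spc25*, an Ndc80 complex gene, with 59.2 and 41.4. For each of these 4 the interval of the fold lay below 1, as at 3.34% of all gene promoters. They were picked as the lowest of 105, so their intervals follow in part from the choice. The highest were *stag2a*, a cohesin subunit gene called in the mutant only, with 18.2 and 50.4, a fold of 2.77 (1.70 to 4.70), *tsg101a*, an ESCRT gene also called in the mutant only, with 20.6 and 39.9, *gtse1*, which acts on p53 in G2 in human cells, with 21.8 and 40.7, and *rad21b*, a cohesin gene, with 21.3 and 39.0. These high members had weak sibling signal, and the low ones had about the signal of an ordinary promoter.

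By role, medians in the wider set included 0.10 over 12 promoters of mitotic entry genes and 0.14 over 12 of midzone and cytokinesis genes. The median was 0.26 over 21 checkpoint and anaphase promoters and also 0.26 over 21 spindle promoters. Below the median of their signal class lay 9 entry, 7 midzone and cytokinesis, 10 checkpoint and anaphase and 11 spindle promoters. Over 22 kinetochore promoters the median log2 ratio was 0.12, and 15 lay below the promoter median. Over 16 chromosome structure promoters it was 0.39, and 5 lay below. Within the latter, the 8 core cohesin promoters, a grouping made after the values were seen, had a median of 0.45. They ran from *smc3* at -0.01 to *stag2a* at 1.42. Above 0 were 7 of them (all gene promoters 77.3%), and 6 after lowess centring (all gene promoters 55.6%). The listed condensin II genes with a promoter were 2, *ncapd3* at 0.23 and *ncapg2* at 0.06. In condensin I, *ncapd2* (0.77) and *ncaph* (0.54) were higher than both, while *ncapg* (0.18) lay between them.

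The labels name cardiomyocytes, and marker promoters were checked for what the hearts held. Of 13 cardiomyocyte markers 9 had a promoter region, including *myl7*, while *vmhc* and *actc1a* were named in no region. All 9 were higher in the mutant under each centring. Their sibling signals ran from 12.1 to 143. A region called in 1 library only enters through that library, and calls at the marker promoters are not given here. Of all gene promoters 77.3% were above 0 uncentred, 62.0% with the median set to 0 and 55.6% after lowess centring. The uncentred log2 ratios of the 9 were 0.31 to 1.46, and their summed signal was 353 and 579. The largest signal of the 9 was that of *myl7*, 143 and 181, the gene named in the reporter Tg(*myl7*:GFP). Whether reporter copies added to the *myl7* signal was not tested. Summed signals were 131 and 166 for 3 of 8 endothelial, 106 and 81.3 for 3 of 5 epicardial, 60.4 and 70.1 for 2 of 6 blood and 226 and 204 for 4 of 6 epidermal, gut and liver markers. These sums hide differences between markers. Uncentred ratios were above 0 at 3 of 3 endothelial promoters, with *nfatc1* nearly equal (81.4 and 81.5). They were above 0 at 1 of 3 epicardial promoters (*wt1a*, 21.8 and 30.8), 1 of 2 blood and 1 of 4 epidermal, gut and liver promoters. For skeletal muscle 2 of 6, *mylpfa* and *tnnt3b*, had a summed 56.6 and 14.6, and *myod1*, *myog*, *myf5* and *mymk* were named in no region. The part of cell makeup in the ratios of the mitosis genes was not tested. Over all regions the sibling library held an estimated 4091458 tags and the *hos* library 4748101.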

How the data were processed

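Hearts of *hos* mutants and siblings at 96 h post fertilization gave 1 ATAC-seq library each. The submitters' processing notes name MACS2 2.1.0 and danRer11. The aligner, the treatment of duplicates, any read shift and the scaling were not given in the sources used here. Deposited by the authors were an average and a peak signal (pileup coverage) per merged region and library, a mark for a called peak, and their own log2 ratio and shrunken log2 fold change, which were not used. A deposited gene table holds mean peak signals. Coordinates are as in the files, where length is end minus start.

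From the signals log2((mutant + 1)/(sibling + 1)) was computed without scaling. The promoter was the nearest region within 1000 bp. Tags were signal times length over 224, the divisor of the deposited tag column. The 10 signal classes were set over gene promoters by mean signal. Members and lists were chosen with earlier results of these data known. All members are named; of the wider set the 4 highest and 4 lowest, and others after their values were seen. Listed symbols absent from the files were matched by gene ID through RefSeq (GRCz12tu). Promoter sequences were not used here, so the planned motif search was not run. The ratio, median and interval steps were tested on simulated counts without an offset between libraries. The centrings and the signal classes were not tested in this way. Alternatives covered pseudocounts of 0.1 and 5, peak signal, centring, promoter distance (500 and 2000 bp) and choice, signal floor, calls, regions with 1 gene and the gene table. The signal and call columns of the regions were used, and of the gene table the mean peak signals. The call marks of the gene table were not used. Lowess (span 0.2) came from statsmodels 0.14.6, intervals from scipy 1.17.1 and figures from matplotlib 3.10.9, under numpy 2.4.6, pandas 2.3.3 and Python 3.11.15.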

Additional observations from a re-analysis of the deposited data

How the results depend on the processing

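Centring had the largest effect. With the median of all regions set to 0, the member promoter median log2 ratio was 0.00 with 19 members above 0, the median over all assigned regions was 0.03 and that of the wider mitosis set 0.05. After lowess centring these were -0.08, 11, -0.05 and -0.02, because the ratio of all regions is subtracted. Among promoters called in both libraries 1 member was 1.5-fold higher. Only 6 members had a promoter region that names 1 gene: 5 of them were above 0 (73.9% of all such promoters) and 0 were 1.5-fold higher. Of these 6, 2 lay above the median of their signal class, and the wider set had a median of 0.43 over 11 promoters there. The other 106 of 119 values stayed within the interval of the median or within 1.5 times the count. Part of these could not change. Counts above 0 do not depend on the pseudocount, and values relative to the signal class do not depend on setting the median to 0. The median over all assigned regions does not depend on promoter distance or choice. The 106 are therefore not a measure of stability. Leaving out 1 role group at a time gave member medians of 0.13 to 0.18. The gap between members and other genes was smaller in the gene table, with medians of 0.16 for members and 0.19 for all genes. There 80.0% of members were above 0, against 74.0% of all genes. Over all assigned regions members did not lie below the general level: their median was 0.03 with that of all regions set to 0. On peak signal the promoter medians were 0.13 for members and 0.22 for all. No replicate could be left out, and no paired analysis was possible because there is 1 library per genotype. At 29 of 39 promoters the counting interval of the fold held 1, so no departure from equal unscaled signals was detectable at their depth. An unscaled fold of 1 is not the level of promoters in general.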
